A study of Caenorhabditis elegans with 3 samples.

Results

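The 77 genes described here encode subunits of ligand-gated ion channels of the nematode Caenorhabditis elegans. They were taken by name from the probe annotation: symbols beginning acr-, lgc-, glr- or nmr- with a number, together with eat-2, deg-3, des-2, unc-29, unc-38, unc-49 and unc-63. The annotation named 78 such genes on 82 rows, and 77 had a value on every array, out of 19293 genes and unnamed rows tested. The gene left out, glr-10, had a value (-1.21) in preparation 2 alone, and unc-63 had no row of its own symbol. Of the 77, 73 rested on 1 row and 4 (acr-5, des-2, glr-2 and glr-4) on the mean of 2 rows.

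Ligand-gated ion channels open when a transmitter binds and so turn a chemical signal into an ion current at the synapse. Most members belong to the Cys-loop family, whose channels are rings of 5 subunits that pass cations (most acetylcholine receptors) or chloride (GABA receptors and some receptors for acetylcholine and amines). The glr and nmr genes encode ionotropic glutamate receptors, a separate family. In the worm these channels act at neuromuscular junctions of the body wall and pharynx and between neurons, and several are targets of drugs against parasitic nematodes.

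Transcripts were measured on 3 microarrays with 2 channels each. On each array 1 channel held mRNA of adult hermaphrodites, labelled TP12 and "w/ emb 3" and numbered as preparations 1, 2 and 3. They were set against a pool of wild-type mRNA, labelled a mixed reference, whose stages and composition are not described, so it is no baseline stage. No strain, allele, age or treatment of the adults is given, and nothing tells whether each preparation was a culture of its own. The p-values therefore measure the spread between these samples, which may be technical.

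The comparison asks which channel transcripts stood at another level in the adults than in the pool. Values are log2 ratios, and a ratio of -1 is a level 2-fold lower. No source used here gives the direction of the ratio. It is taken as adults over reference, which is likely from the channel order and from genes of known stage. Eggshell genes had a median ratio of 1.19 (11 of 13 higher), moulting genes -0.37 (11 of 26 lower) and major sperm protein genes -1.64 (26 of 28 lower). Signal shared between related genes could not be checked, so these counts may not be of separate observations. The sperm genes spe-9, spe-11, spe-38 and spe-41, outside that family, stood at 0.14, -0.37, 0.02 and 0.30 and did not pass. These lists were chosen with earlier results of these data known. Of 3 vitellogenin genes, 1 was higher and the median was 0.24 (0.66 without preparation 1), with vit-6 at -0.59, 0.82 and 0.49. Under the opposite direction every higher and lower below would exchange places. Each array was centred near 0, so a change common to most transcripts would be hidden.

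Channel genes were mostly near the pool's level or below it, and all shifts were small. Of the 77, 14 (18.2%) were lower in adults and 1 (1.3%) was higher at an adjusted p of 0.05 in limma, while 62 did not pass. Over all genes tested, 13.7% were lower and 14.8% higher, and no test of these shares was made. The lower genes were glr-5, deg-3, acr-12, lgc-34, unc-29, unc-49, lgc-44, unc-38, lgc-47, lgc-32, glr-6, des-2, acr-5 and lgc-31, and the higher gene was lgc-12. The shares of lower members depended on the arrays used. Without preparation 2 the count was 7 lower (9.09%) and 1 higher (1.3%), against 8.72% and 9.28% of all genes, and without preparation 3 it was 9 (11.7%) and 1, against 9.98% and 9.83%. Without preparation 1 it was 28 lower (36.4%) and 3 higher (3.9%), against 20.1% and 22.2% of all genes. With arrays weighted by their agreement it was 30 lower (39%) and 4 higher (5.19%), against 22.9% and 25.3%. In these 4 settings and in the reported one the share of higher members was below that of all genes.

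**Figure D1:**
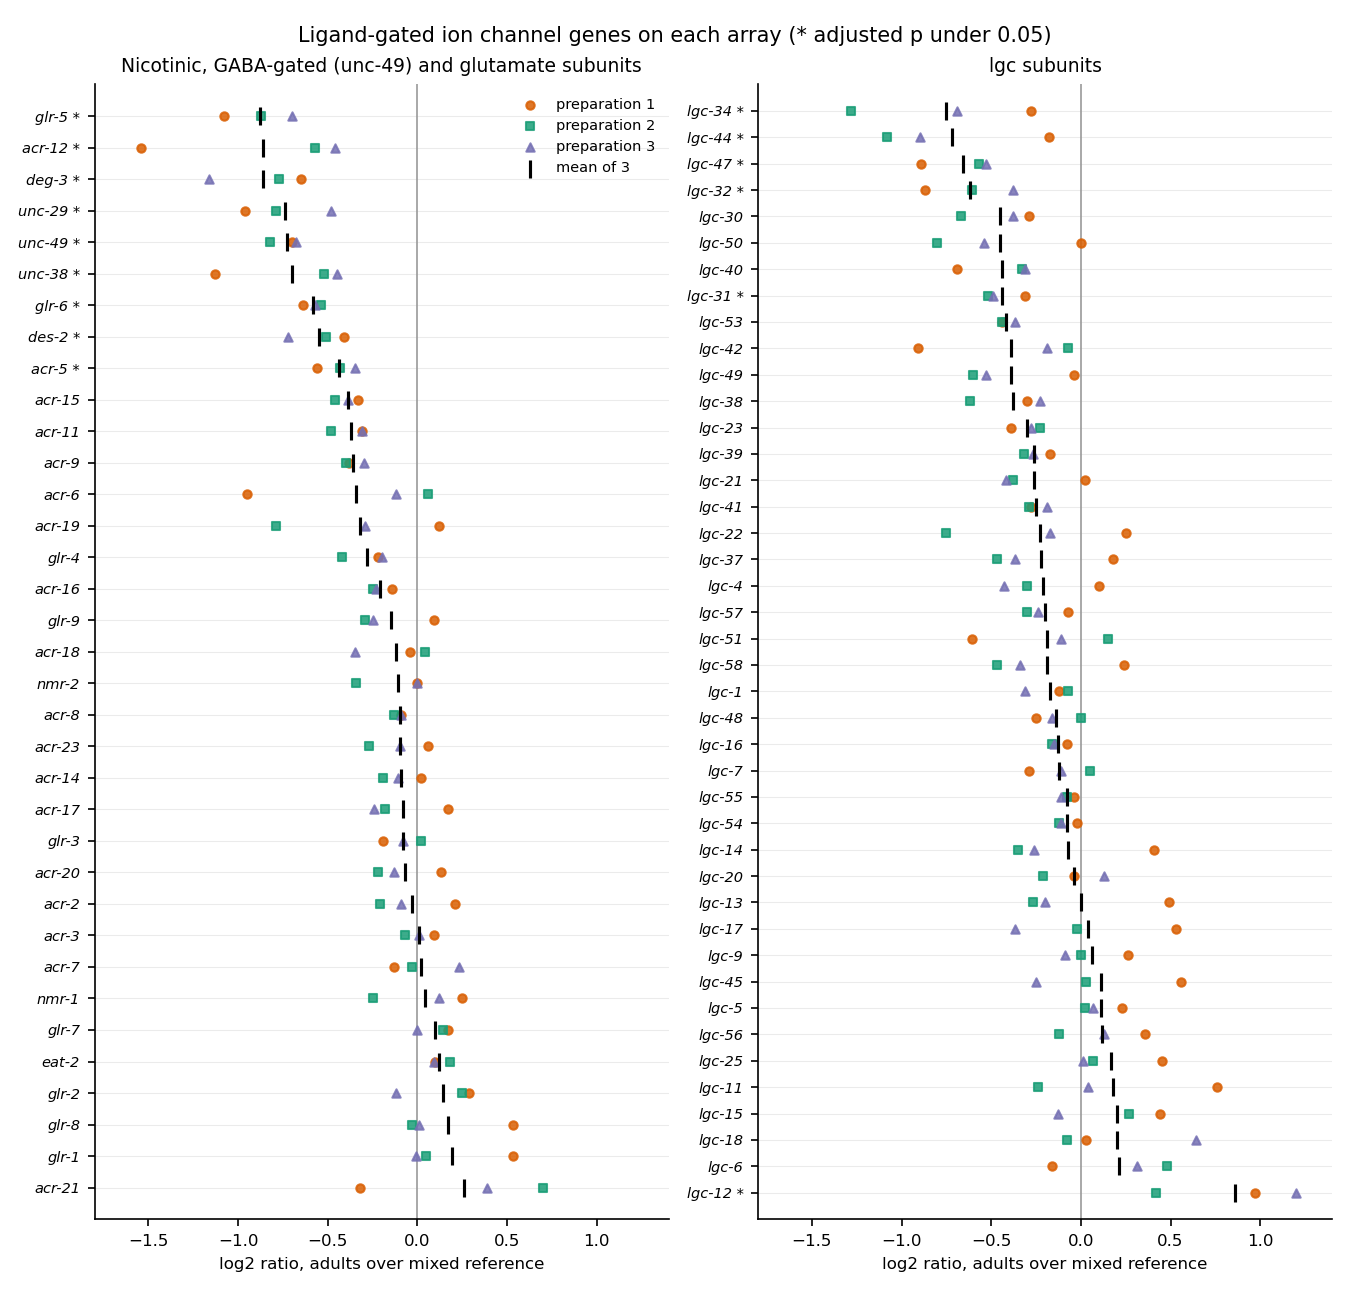
Log2 ratio, adults over mixed reference, of each of the 77 genes (rows) on the arrays of preparations 1 to 3 (circles, squares and triangles), with the mean as a black tick and an asterisk for an adjusted p under 0.05. The means run from -0.88 for glr-5 to 0.86 for lgc-12, and many genes cross 0 between arrays.

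The mean ratio was negative for 56 of the 77 genes (72.7%), against 48.1% of all genes tested. The ratio was below 0 on all 3 arrays for 36 members (46.8%) and above 0 on all 3 for 4 (5.19%), where the background was 27.2% and 30.1%. The 4 were lgc-12, eat-2, lgc-5 and lgc-25. The median of the members was -0.17, and 0.02 over all genes. No member reached an absolute log2 ratio of 1, as 8.78% of all genes did. With that size required beside the adjusted p, 0 members were called, against 4.88% of all genes lower and 3.88% higher. The median SD over the arrays was 0.21 for members and 0.24 for all genes, and a log2 ratio of 0.42 was the smallest that passed in the whole table.

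**Figure D2:**
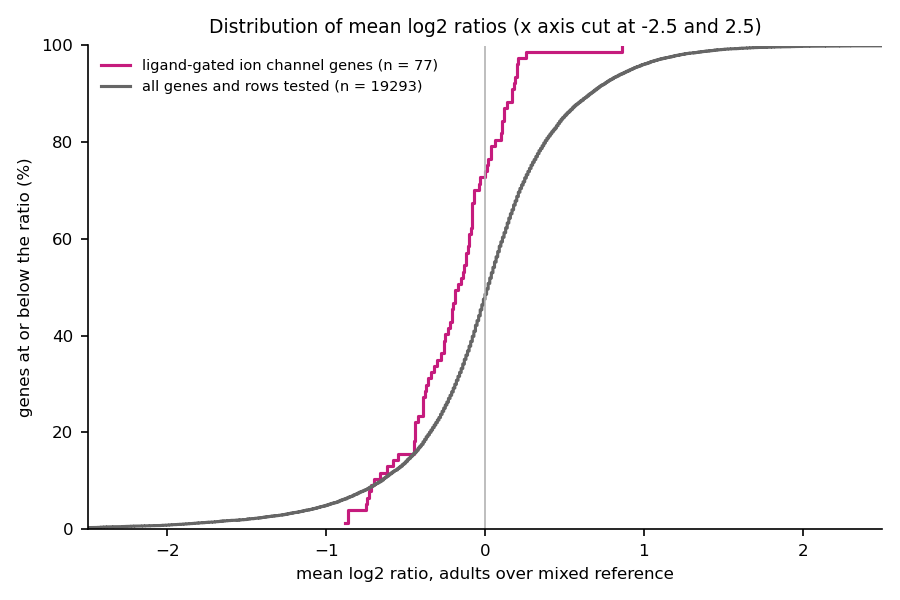
Share of genes (%) at or below each mean log2 ratio, for the 77 ligand-gated ion channel genes and for all 19293 genes and rows tested. The members' curve stands to the left of the other between about the lower quartile (-0.39, against -0.26) and the upper quartile (0.01, against 0.29) and has shorter tails.

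The arrays differed in how they ranked the members. Preparations 2 and 3 had a Pearson correlation of 0.75 over the 77 genes, while preparation 1 had 0.40 with preparation 2 and 0.49 with preparation 3. Over all genes the values were 0.90, 0.69 and 0.68 in the same order. All pairs share the reference channel. The members' medians were -0.07, -0.25 and -0.23 in preparations 1, 2 and 3. Preparation 1 gave the highest of the 3 values for 43 members and the lowest for 19. On that array the medians of 32 successive blocks of rows ran from -0.35 to 0.39, against -0.12 to 0.23 and -0.12 to 0.21 on the others. With each block centred, 20 members (26%) were lower and 1 (1.3%) higher, against 17.2% and 16.2% of all genes. Of the 14, 13 stayed lower and lgc-31 did not, and acr-11, acr-19, glr-4, lgc-30, lgc-38, lgc-49 and lgc-57 were added.

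**Figure D3:**
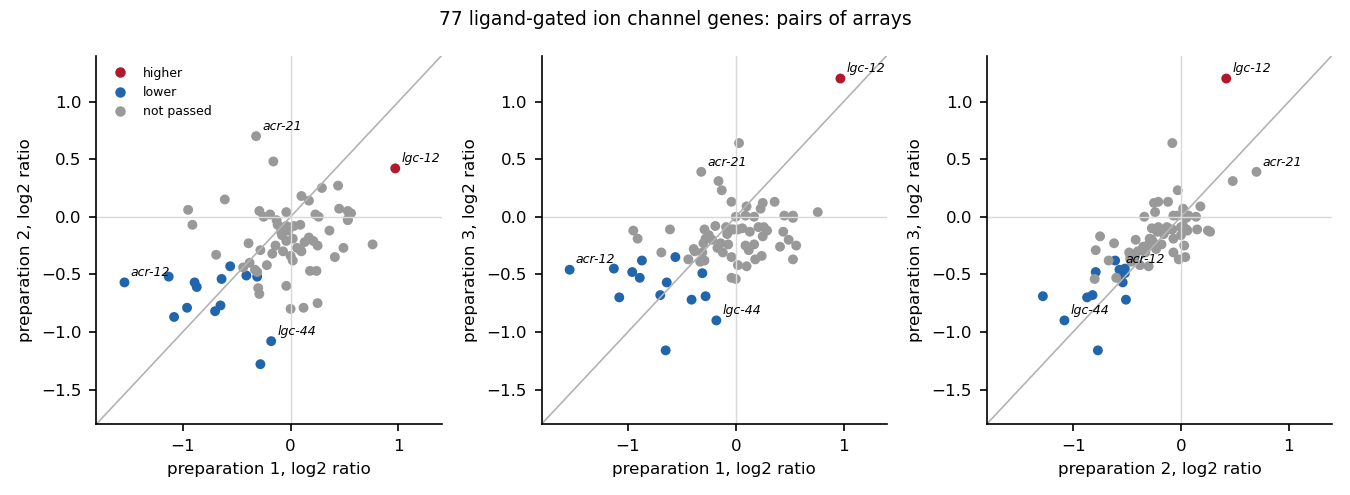
Log2 ratios of the 77 genes on pairs of arrays, with genes past the threshold in red (higher) and blue (lower) and the line of equal values in grey. Points lie closest to the line for preparations 2 and 3 (r = 0.75), and acr-12 stands at -1.54 in preparation 1 against -0.57 and -0.46 in the others.

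Whole animals were measured, so fewer cells of a type and less RNA per cell cannot be told apart. If "w/ emb" in the label stands for embryos, their RNA may be part of the samples and cannot be set apart. Under the direction taken above, the adults' RNA held more germline transcripts than the pool. Of 20 germline and oocyte markers 19 (95%) were higher and 0 lower (1 lower without preparation 1), against 14.8% and 13.7% of all genes. Their median was 1.67, with array medians of 1.80, 1.66 and 1.55. These markers are no separate evidence of the direction, since cbd-1, egg-1 and egg-3 are also in the eggshell list used for it. Of 18 pan-neuronal markers 7 (38.9%) were lower and 0 higher (median -0.35), against 13.7% and 14.8% of all genes. Of 15 body wall muscle markers 3 (20%) were lower and 0 higher (median -0.15). No test of these shares was made. Without preparation 1 the neuronal count was 10 lower (55.6%) and 2 higher (11.1%), against 20.1% and 22.2% of all genes, and the muscle count 4 lower (26.7%). Without preparation 2 or 3 the muscle count was 2 (13.3%), against 8.72% and 9.98% of all genes. Pharyngeal muscle markers had 2 lower (25%) and 1 higher (12.5%) of 8, and intestinal markers 2 and 2 of 11 (18.2% each). Epidermal markers had 2 lower (20%) and 1 higher (10%) of 10, and sperm markers 26 (81.2%) and 0 of 32. The 26 lower sperm markers are major sperm protein genes that also served for the direction. The pharyngeal, intestinal and epidermal counts moved by up to 2 genes when 1 preparation was left out. The part of these shifts in the channel genes' ratios was not tested.

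Among the nicotinic acetylcholine receptor subunits, which form cation channels, 6 of 23 (26.1%) were lower and 0 higher, with a median of -0.21, against 13.7% and 14.8% of all genes. Without preparation 2 or 3 the count was 4 (17.4%, against 8.72% and 9.98% of all genes). Without preparation 1 it was 10 lower (43.5%, against 20.1%) and 1 higher (4.35%, against 22.2%). Subunits of the levamisole receptor, the body wall muscle channel opened by the drug levamisole, were among the lower genes. The non-alpha subunit gene unc-29 stood at -0.96, -0.79 and -0.48 in preparations 1, 2 and 3, a mean of -0.74 ± 0.25 (SD, n = 3) or 1.67-fold lower (limma adjusted p = 0.00896). The alpha subunit gene unc-38 stood at -1.13, -0.52 and -0.45, a mean of -0.70 ± 0.38 (adjusted p = 0.0191, limma). All 6 values were below 0, and the unc-38 value of preparation 1 was more than 2-fold lower than the pool while the other 2 were not. Without preparation 1 the mean of unc-38 was -0.49, and it still passed (limma adjusted p = 0.0122).

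The other muscle receptor for acetylcholine, which is opened by nicotine and is built of ACR-16, did not pass. Its gene acr-16 stood at -0.14, -0.25 and -0.23, a mean of -0.21 with a 95% interval of -0.52 to 0.10. The ratio of unc-29 was below that of acr-16 by 0.82, 0.53 and 0.24 in preparations 1, 2 and 3, and that of unc-38 by 0.99, 0.26 and 0.22. Both differences had the same sign on each array. They were not tested, since an exact two-sided sign-flip permutation test on 3 arrays cannot go below p = 0.25. That limit holds for each single gene too. The calls in this report rest on limma's moderated variance, and without it no gene of the table passed. A further subunit, acr-8, a levamisole receptor subunit in other nematodes, stood at -0.10 with an interval of -0.41 to 0.21.

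Of the motor neuron subunits, acr-12 was lower, while acr-2 and acr-3 did not pass. The ACR-2 receptor is a cation channel of cholinergic motor neurons that holds ACR-2, ACR-3 and ACR-12 with UNC-38 and UNC-63. The gene acr-12 stood at -1.54, -0.57 and -0.46, a mean of -0.86 ± 0.59 (SD, n = 3; limma adjusted p = 0.0216), so preparation 1 stood well below the others. Without preparation 1 its mean was -0.52 and it still passed (limma adjusted p = 0.0096). The neighbouring genes acr-2 and acr-3 stood at -0.03 and 0.01, with 95% intervals of -0.38 to 0.31 and -0.30 to 0.33. On each array acr-12 was below both, by 0.36 to 1.74, and this was not tested. A subunit of the DEG-3 group found in motor neurons, acr-5, stood at -0.56, -0.43 and -0.35 (mean -0.44; limma adjusted p = 0.0454). It did not pass without preparation 2 or without preparation 3 (limma adjusted p = 0.212 and 0.199), and of its 2 rows 1 passed by itself, at -0.49, and the other, at -0.40, did not.

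The pair deg-3 and des-2, whose products form a choline-sensitive channel of sensory neurons, was lower. The genes are neighbours in the RefSeq annotation. The gene deg-3 stood at -0.65, -0.77 and -1.16, a mean of -0.86 ± 0.26 (SD, n = 3) or 1.81-fold lower (adjusted p = 0.00521, limma). The gene des-2 stood at -0.41, -0.51 and -0.72, a mean of -0.55 ± 0.15 (adjusted p = 0.0231, limma). The 2 rows of des-2 disagreed: the first stood at -0.94, -0.60 and -0.89 and passed, and the second at 0.11, -0.43 and -0.54 and did not (limma adjusted p = 0.257). The call of des-2 was lost without preparation 2 (limma adjusted p = 0.105) and without preparation 3 (0.234).

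The remaining members of the DEG-3 group did not pass. The betaine receptor gene acr-23, whose product is a target of the drug monepantel, stood at -0.10 (95% interval -0.43 to 0.23), and its relative acr-20 at -0.07 (-0.41 to 0.26). The genes acr-17 and acr-18 stood at -0.08 and -0.12. None of the 9 genes of the ACR-16 group passed, and their means ran from -0.39 for acr-15 to 0.26 for acr-21. The group's count without preparation 1 was 4 lower (44.4%) and 1 higher (11.1%), against 20.1% and 22.2% of all genes. Without preparation 2 or without preparation 3 it was 0 and 0. The value of acr-15 was -0.33, -0.46 and -0.39 on the arrays and that of acr-11 -0.31, -0.48 and -0.31, each below 0 throughout (limma adjusted p = 0.0656 and 0.0855). Both passed without preparation 1, at -0.43 and -0.39 (limma adjusted p = 0.0212 and 0.0326). Neither passed without preparation 2 (limma adjusted p = 0.351 and 0.445) or without preparation 3 (0.336 and 0.331). The gene acr-21 had opposite signs between arrays, at -0.32, 0.70 and 0.39, and passed as higher without preparation 1 (0.55; limma adjusted p = 0.0114). Without preparation 2 or 3 its mean was 0.03 or 0.19, and it did not pass (limma adjusted p = 0.96 and 0.717). The gene eat-2, whose product sets fast pumping of the pharynx, was above 0 on all 3 arrays, at 0.10, 0.18 and 0.09. Its mean was 0.12 with an interval of -0.19 to 0.43. The alpha-type gene acr-6 stood at -0.95 in preparation 1 and at 0.06 and -0.12 in the others.

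**Figure D4:**
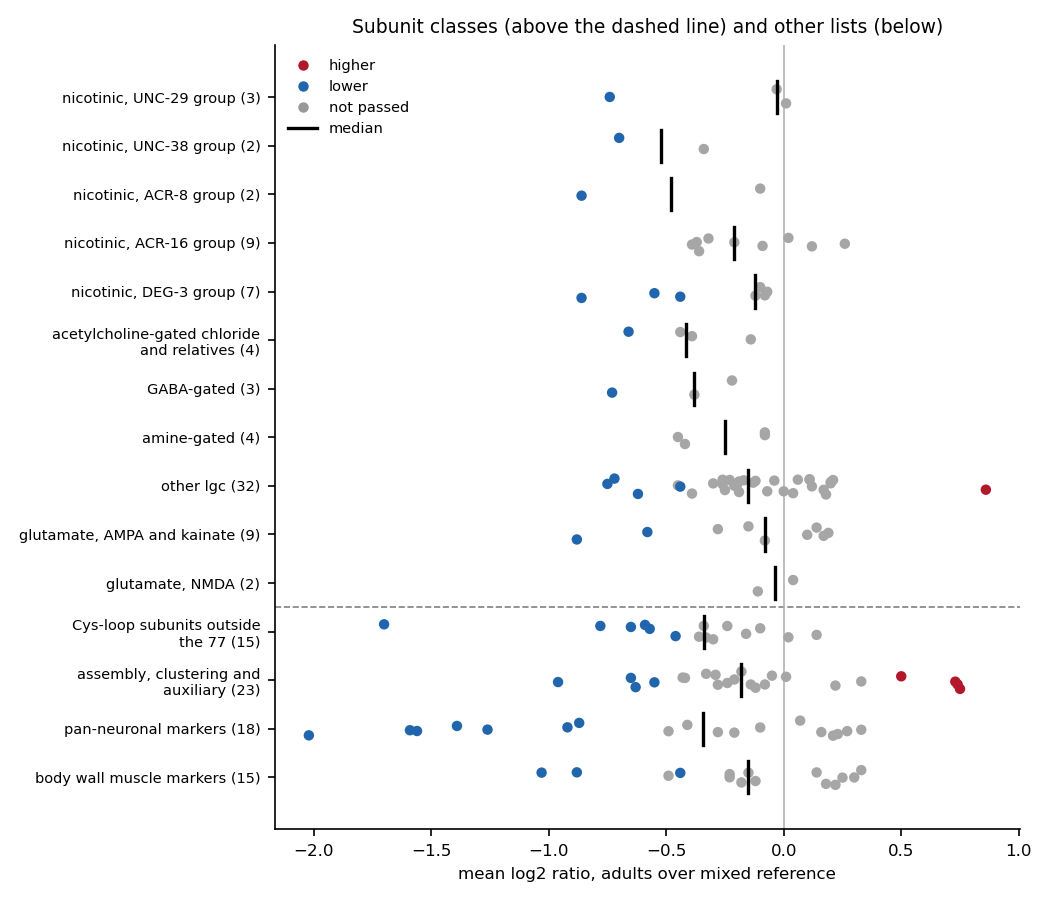
Mean log2 ratio of each gene by subunit class (above the dashed line, with the number of genes in brackets) and in 4 other lists (below it); red, blue and grey points are higher, lower and not passed, and black ticks are medians. The only higher member, lgc-12, stands apart at 0.86, and pan-neuronal markers reach further down (to -2.02) than any channel gene of the 77.

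Among the members, receptors for GABA, the main inhibitory transmitter at worm muscle, had 1 lower gene of 3 (33.3%, against 13.7% of all genes). It was unc-49, which encodes the chloride channel that relaxes body wall muscle. Its values were -0.70, -0.82 and -0.68, a mean of -0.73 ± 0.08 (SD, n = 3) or 1.66-fold lower (adjusted p = 0.00594, limma), and it passed without each preparation in turn. The related genes lgc-37 and lgc-38 stood at -0.22 and -0.38 and did not pass (limma adjusted p = 0.385 and 0.0929). Without preparation 1, whose lgc-37 value was 0.18 against -0.47 and -0.37, both passed at -0.42 and -0.43 (limma adjusted p = 0.0235 and 0.0385). Neither passed without preparation 2 (limma adjusted p = 0.86 and 0.538) or without preparation 3 (0.792 and 0.237). With blocks of rows centred lgc-38 stood at -0.62 and passed (limma adjusted p = 0.0081), and lgc-37 at -0.38 did not (0.0723). The further GABA receptor genes exp-1 and gab-1 fall outside the symbol rule and are counted with the further Cys-loop subunits below. They stood at -0.34 and -0.10 and did not pass (limma adjusted p = 0.123 and 0.737).

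Among the lgc genes, chloride channels gated by acetylcholine and their relatives had negative means in all 4 measured, and 1 passed. That gene, lgc-47, stood at -0.89, -0.57 and -0.53, a mean of -0.66 ± 0.20 (SD, n = 3; limma adjusted p = 0.0121). The gene lgc-40, whose product responds to serotonin, choline and acetylcholine, stood at -0.69, -0.33 and -0.31 and did not pass (limma adjusted p = 0.0591). The relatives lgc-49 and lgc-48 stood at -0.39 and -0.14. The value of lgc-49 in preparation 1 was -0.04, and without that preparation it had a mean of -0.56 and passed (limma adjusted p = 0.0063). Without preparation 2 or without preparation 3 lgc-49 did not pass (limma adjusted p = 0.501 and 0.466). The related acc genes fall outside the symbol rule and are counted with the further Cys-loop subunits below. Of the acc genes, acc-1 was lower, at -0.57 (limma adjusted p = 0.0198). It did not pass without preparation 2 or without preparation 3 (limma adjusted p = 0.116 and 0.0614). The genes acc-2, acc-3 and acc-4 stood at -0.24, -0.30 and -0.33 and did not pass.

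All 4 amine-gated channel genes had negative means and none passed. The dopamine-gated chloride channel gene lgc-53 stood at -0.44, -0.44 and -0.37 (mean -0.42; limma adjusted p = 0.0523), the closest of the 4 to the threshold. It passed with each array centred on its median or without preparation 1. It did not pass without preparation 2 or without preparation 3 (limma adjusted p = 0.279 and 0.259), or with blocks of rows centred (0.0571). The serotonin-gated channel gene lgc-50 stood at 0.00, -0.80 and -0.54, so preparations 2 and 3 were low and preparation 1 was level with the pool. Without preparation 1 its mean was -0.67 and it passed (limma adjusted p = 0.00396). It did not pass without preparation 2 or without preparation 3 (limma adjusted p = 0.534 and 0.331). The tyramine-gated chloride channel gene lgc-55, which acts in the escape response, stood at -0.08 with an interval of -0.39 to 0.23, and lgc-54 at the same mean. With blocks of rows centred the means of these 2 were 0.04 and 0.02.

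Of the other 32 lgc genes, 4 (12.5%) were lower and 1 (3.12%) higher, against 13.7% and 14.8% of all genes. Their median was -0.15, and -0.08 without preparation 2. The higher gene was lgc-12, at 0.97, 0.42 and 1.20, a mean of 0.86 ± 0.40 (SD, n = 3) or 1.82-fold higher (adjusted p = 0.00904, limma). All 3 values were above 0, preparation 2 had the smallest, and it passed without each preparation in turn, at 0.69 to 1.08. It stood above 94.1% of all genes tested. No other member had a mean above 0.26.

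The 4 lower genes of this class differed in how the arrays placed them. The gene lgc-34 stood at -0.28, -1.28 and -0.69 (mean -0.75; limma adjusted p = 0.0251) and lgc-44 at -0.18, -1.08 and -0.90 (mean -0.72; 0.0261). In both, preparation 1 was nearest to the pool. The gene lgc-32 stood at -0.87, -0.61 and -0.38 (mean -0.62; limma adjusted p = 0.0185), with preparation 1 the lowest, and lgc-31 at -0.31, -0.52 and -0.49 (mean -0.44; 0.0484). Without preparation 2 none of the 4 passed (limma adjusted p = 0.178, 0.135, 0.0713 and 0.291). Without preparation 3 neither lgc-44 nor lgc-31 passed (limma adjusted p = 0.083 and 0.304), and with blocks of rows centred lgc-31 stood at -0.36 (0.0535). Without preparation 1 the class had 9 lower (28.1%) and 2 higher (6.25%) genes, against 20.1% and 22.2% of all genes.

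Of the genes of this class that did not pass, lgc-30 and lgc-42 had the largest shifts, at -0.45 (limma adjusted p = 0.0544) and -0.39 (0.171). The first passed without preparation 1 (-0.53; limma adjusted p = 0.0122). It did not pass without preparation 2 or without preparation 3 (limma adjusted p = 0.393 and 0.215). The values of lgc-42 were -0.91, -0.07 and -0.19, so its mean rested on preparation 1. The other 25 ran from -0.30 for lgc-23 to 0.21 for lgc-6. The betaine-gated channel gene lgc-41 was among them at -0.25, with values of -0.28, -0.29 and -0.19. The genes lgc-13 to lgc-17 are neighbours in the annotation and stood between -0.13 and 0.20. In preparation 1 lgc-13, lgc-14, lgc-15 and lgc-17 were at 0.41 to 0.53, while in the other preparations these 4 ran from -0.37 to 0.27. Their rows lie in 2 blocks of rows with medians of 0.24 and 0.31 in preparation 1, and with blocks centred their values there were 0.25, 0.10, 0.21 and 0.21. The remaining neighbour, lgc-16, lies in the block with the median of 0.24. It stood at -0.08 in preparation 1, and at -0.32 with blocks centred. The part of the blocks in these values was not tested.

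The ionotropic glutamate receptor genes had 2 lower members of 11 (18.2%) and 0 higher, against 13.7% and 14.8% of all genes. Their median was -0.08, and it was 0.00 without preparation 2 and -0.14 with blocks of rows centred. Both lower genes encode kainate-type subunits. The gene glr-5 had the lowest mean of the 77, with -1.08, -0.87 and -0.70 on the arrays, a mean of -0.88 ± 0.19 (SD, n = 3) or 1.84-fold lower (adjusted p = 0.00359, limma), and it passed without each preparation in turn. The gene glr-6 stood at -0.64, -0.54 and -0.57, a mean of -0.58 ± 0.05 (adjusted p = 0.015, limma), and it was lost without preparation 2 (0.0763) or preparation 3 (0.106). On each array glr-5 was below glr-6, by 0.44, 0.34 and 0.13. The further kainate-type genes glr-3, which encodes a cold receptor of a sensory neuron, and glr-4 stood at -0.08 and -0.28 and did not pass. With blocks centred glr-4 stood at -0.38 and passed (limma adjusted p = 0.0499). It did not pass without preparation 1, 2 or 3 (limma adjusted p = 0.0768, 0.635 and 0.455).

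The AMPA-type genes glr-1 and glr-2, which act in the interneurons that command forward and backward movement, had small positive means of 0.19 and 0.14, with 95% intervals of -0.18 to 0.56 and -0.21 to 0.48. Most of the glr-1 mean came from preparation 1, at 0.53 against 0.05 and -0.01. Its row lies in a block with a median of 0.39 in preparation 1, and with blocks centred its mean was -0.02 and that of glr-2 was 0.06. The NMDA-type genes nmr-1 and nmr-2 stood at 0.04 (interval -0.32 to 0.39) and -0.11 (-0.45 to 0.23), and at -0.20 and 0.01 with blocks centred. The genes glr-7 and glr-8, known in pharyngeal neurons, stood at 0.10 and 0.17, and glr-9 at -0.15. None of these 7 passed, and a miss of the threshold does not show that their levels were equal to the pool's.

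Outside the 77, 15 further Cys-loop subunit genes of a fixed list of 21 were measured, and 6 (40%) were lower and 0 higher (median -0.34), against 13.7% and 14.8% of all genes. The lowest was glc-1, a glutamate-gated chloride channel gene and ivermectin target, at -1.54, -1.91 and -1.64, a mean of -1.70 ± 0.19 (SD, n = 3) or 3.24-fold lower (adjusted p = 2.77e-04, limma). That was below all 77 members. The related glc-4 stood at -0.78 ± 0.10 (adjusted p = 0.00465, limma), and lev-1, a non-alpha subunit of the levamisole receptor, at -0.59 ± 0.13 (limma adjusted p = 0.0161). The levamisole receptor subunit gene lev-8 stood at 0.02. Without preparation 2 or 3 the count was 3 and lev-1 did not pass (limma adjusted p = 0.0663 and 0.173), and with blocks of rows centred it was 9. The share lower was then 20% and 60%, against 8.72% and 9.98% of all genes without preparations 2 and 3 and 17.2% with blocks centred.

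Genes that assemble, cluster or modulate these receptors included 4 lower and 4 higher of 23, 17.4% each, close to the 13.7% and 14.8% of all genes. The lower group held rpy-1, the rapsyn-like gene, at -0.96 ± 0.21 (SD, n = 3; limma adjusted p = 0.00266), madd-4, whose product organises acetylcholine and GABA receptors at the muscle, at -0.63, molo-1, an auxiliary gene of the levamisole receptor, at -0.65, and the kinase gene unc-43 at -0.55. The higher group held unc-50, needed for levamisole receptor traffic, at 0.75 ± 0.15 (SD, n = 3; limma adjusted p = 0.00639), nra-2 and nra-4, which act in the endoplasmic reticulum on receptor composition, at 0.74 and 0.50, and the netrin receptor gene unc-40 at 0.73. The chaperone gene ric-3 stood at -0.18 and did not pass (limma adjusted p = 0.479). Without preparation 1 the count was 9 lower (39.1%) and 5 higher (21.7%), against 20.1% and 22.2% of all genes. Without preparation 2 it was 1 lower (rpy-1, 4.35%) and 2 higher (unc-50 and nra-2, 8.7%), against 8.72% and 9.28%. Without preparation 3 it was 2 (8.7%) and 3 (13%), against 9.98% and 9.83%.

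On the side of the transmitters, 2 of 6 acetylcholine genes were lower (33.3%) and 1 higher (16.7%), against 13.7% and 14.8% of all genes. The row of the vesicular transporter gene unc-17 stood at -0.73 ± 0.14 (SD, n = 3; limma adjusted p = 0.00702). That row is named cha-1, the synthesis enzyme of the same locus, in the RefSeq table, so the 2 cannot be told apart. The acetylcholinesterase genes ace-1 and ace-2 stood at -0.49 and 0.60. Without preparation 1 the count was 3 lower (50%, against 20.1% of all genes) and 1 higher (16.7%, against 22.2%). Neither ace gene passed without preparation 2 or without preparation 3, and unc-17 did not without preparation 3 (-0.68; limma adjusted p = 0.0511). Of 18 genes for the making and uptake of GABA, glutamate and amines, 5 were lower (27.8%, against 13.7%) and 1 higher (5.56%, against 14.8%). The lower ones were the glutamate transporter gene glt-5 at -1.88 ± 0.29 (SD, n = 3; limma adjusted p = 2.56e-04) and 4 GABA genes. These were unc-25, the synthesis enzyme, at -1.42, the vesicular transporter gene unc-47 at -0.55, unc-46 at -0.49, and the uptake gene snf-11 at -0.65. The higher one was tdc-1, the tyramine synthesis enzyme, at 1.09 ± 0.26 (SD, n = 3; limma adjusted p = 0.00194). Without preparation 2 or 3 the count was 2 lower (glt-5 and unc-25, 11.1%) and 1 higher (5.56%). Over all genes the shares were 8.72% and 9.28% without preparation 2, and 9.98% and 9.83% without preparation 3. Without preparation 1 the count was 8 (44.4%) and 1 (5.56%), against 20.1% and 22.2% of all genes.

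Among the 15 channel genes past the threshold, 8 passed in each of 10 further settings that kept the moderated variance: glr-5, deg-3, acr-12, unc-29, unc-49, unc-38, lgc-47 and lgc-12. All 10 settings used the same arrays, so they are not separate evidence. Updating the symbols changed no member's symbol and could hardly change a call, and the robust variance prior added and lost no member. At the stricter adjusted p of 0.01 the count was 4 lower (glr-5, deg-3, unc-29 and unc-49) and 1 higher (lgc-12), where 7.48% and 7.83% of all genes passed.

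**Figure D5:**
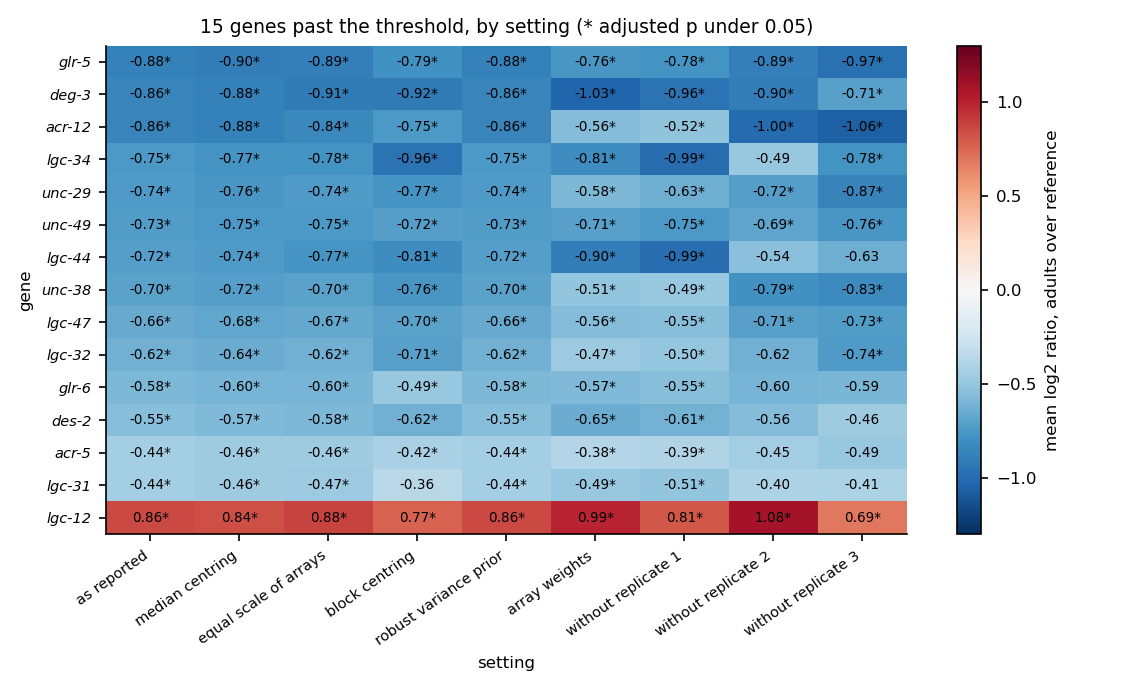
Mean log2 ratio of the 15 genes past the threshold (rows) under the reported setting and 8 others (columns), with an asterisk for an adjusted p under 0.05. No mean changes sign; asterisks are missing for lgc-34, lgc-44, lgc-32, glr-6, des-2, acr-5 and lgc-31 where an array is left out, and for lgc-31 with blocks centred.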

How the data were processed

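The authors deposited 1 log2 ratio per row and array. Base 2 follows from the values, since raised from it all 59554 values under a ratio of 10 fell on steps of 0.001 (tolerance 0.01 of a step). Scanner, background correction and normalisation were not given in the sources used here. No spot intensities were used, so dim or saturated spots could not be set apart. The arrays held 19904, 19832 and 19839 values, and their number limits the precision. Of 20000 rows, 15655 had 1 symbol in the 2007 platform annotation. The RefSeq table of WBcel235 served for names and neighbours only and changed no member's symbol.

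Rows of 1 symbol were averaged per array. Complete genes were tested against 0 (limma 3.58.1, R 4.3.3; lmFit and eBayes, two-sided), with Benjamini-Hochberg adjustment over all 19293 and a threshold of 0.05. Intervals are limma's moderated 95% intervals, unadjusted. The script was tested on simulated data. Each preparation was on an array of its own, so preparation and array cannot be told apart. The alternatives changed centring, scale, array weights, variance model, row averaging, missing values, symbols and preparations.

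The members and lists were chosen with earlier results of these data known. Named by rule were members past the threshold, others with a known ligand or function, the 5 largest of the rest, and the 3 smallest p-values of the receptor and transmitter lists. Named after their values were seen were acr-6, acr-17, acr-18, acr-21, glr-9, lgc-5, lgc-6, lgc-13 to lgc-17, lgc-23, lgc-25, lgc-41, lgc-48, lgc-54 and the remaining list genes.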

Additional observations from a re-analysis of the deposited data

How the results depend on the processing

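The count of members lower in adults was 14, and it was 13 to 20 with median centring, equal scaling, block centring, a robust variance prior, 2 of 3 values, updated symbols or single rows. It was 30 (39%, against 22.9% of all genes) with array weights (0.28, 1.12 and 3.16 for preparations 1, 2 and 3), 7 to 28 when 1 preparation was left out, and 0 without variance moderation. The count of higher members was 1 in the reported fit, 4 with array weights (5.19%, against 25.3%), 1 to 3 when 1 preparation was left out, and 0 without moderation. In that last fit 20 members were lower and 1 higher at an unadjusted p under 0.05, and no gene of the table passed (4903 at an unadjusted p under 0.05). The 14 lower genes all stayed lower with array weights and without preparation 1. The median of the members lay between -0.23 and -0.12 in all alternatives. At an absolute log2 ratio of at least 1 no member passed (4.88% of all genes were lower and 3.88% higher). The cause of these changes was not tested. No paired analysis was possible because all 3 samples form 1 group.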
